A study of Homo sapiens with 8 samples.

Results

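The 42 genes described here encode factors that build ribosomes in the nucleolus, together with MYC. The rule that picks them uses gene names and no measured value, but the set was drawn up with earlier results of these data known. All 42 are present in both deposited tables, among 31582 genes in the table of inhibitor-treated cells and 28942 genes in the table of knockdown cells, or 34164 genes in either table. By role, the set holds 5 genes of RNA polymerase I (Pol I) transcription, 6 of the small nucleolar ribonucleoproteins (snoRNPs), 2 abundant nucleolar proteins, 15 of the small subunit processome and small subunit maturation, 12 of large subunit assembly, MYBBP1A and MYC itself.

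Total RNA from Kyse510, an established human cell line of esophageal squamous cell carcinoma (ESCC), gave 8 libraries, and every condition is a single library. For the inhibitors, the cells received vehicle (DMSO), 7 µM SP2509 (an inhibitor of the histone demethylase LSD1), 7 µM UNC0642 (an inhibitor of the histone methyltransferase G9a), or the combination, for 2 days, and no separate dose is stated for the combination. For the knockdowns, stable Kyse510 lines carrying shLSD1 or shG9a, selected in puromycin for 14 days, were sequenced without doxycycline (Dox) and after 2 days of Dox, which induces the hairpin. No source used here says whether a line is a single clone or a pool, and no library of Dox on a nonsilencing hairpin was analysed here, so that an effect of Dox itself and an effect of the knockdown cannot be told apart.

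Ribosomes are made in the nucleolus, where Pol I transcribes the ribosomal RNA (rRNA) precursor. Box C/D and H/ACA snoRNPs then guide the chemical modification of the precursor, the small subunit processome folds and cuts it, and further assembly factors mature the small and the large subunit before export. MYC is a transcription factor known for raising many of these genes together, often through the E-box, a short DNA motif that it binds with its partner MAX, and tumour cells are known for enlarged nucleoli.

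Values are FPKM (fragment counts divided by gene length and by library depth), and a fold change is the ratio of FPKM + 1 in a treated library to FPKM + 1 in its own control, on the log2 scale. Genes with at least 1 FPKM in at least 1 of the 2 libraries were tested, and "rose" or "fell" is used of genes past a fold of 1.3, which is 0.38 on that scale. Where values are listed without names, those of the inhibitor libraries come in the order vehicle, SP2509, UNC0642 and combination, and those of a line in the order uninduced and induced. There was no replicate check for any difference, since each condition has 1 library, and nothing says that libraries came from separate cultures. In bulk RNA, fewer cells expressing a gene and less RNA per cell cannot be told apart.

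Library totals estimated from the FPKM values lay between 15662035 and 17889466 reads. KDM1A, which encodes LSD1, had 26.0 FPKM without and 6.29 FPKM with Dox in the shLSD1 line, and EHMT2, which encodes G9a, had 7.85 and 4.76 FPKM in the shG9a line. The squamous markers KRT5 (74.6 to 734 FPKM), KRT17 (158 to 3716), TP63 (18.3 to 127) and CDH1 (53.2 to 122) were present in all 8 libraries, while PTPRC, PECAM1 and COL1A2, which mark leukocytes, endothelium and fibroblasts, stayed below 1 FPKM, and the fibroblast marker COL1A1 had 2.92 to 5.36 FPKM. Not every squamous marker was present throughout. SOX2 had 18.3 FPKM under vehicle, 0.313 after SP2509, 4.94 after UNC0642 and 0.636 after both, and 5.24 to 38.8 in the knockdown libraries. KRT6A was below 1 FPKM under vehicle (0.676), in both shLSD1 libraries (0.769 and 0.819) and in the uninduced shG9a library (0.805). KRT14, EPCAM and DSG3 stayed above 1 FPKM in all 8 libraries. The squamous list itself moved with treatment. Its summed level was 1084 FPKM under vehicle, 4874 after SP2509, 1454 after UNC0642 and 1078 after both, 2187 and 600 in the uninduced and induced shLSD1 line, and 2021 and 733 in the shG9a line, mostly through KRT17. Of its 9 genes 6 rose and 1 fell with SP2509, 4 rose and 3 fell with UNC0642, and 4 rose and 4 fell with both. With Dox 1 rose and 2 fell of 8 tested in the shLSD1 line, and 4 rose and 2 fell of 9 in the shG9a line. The part of these changes in the results described next was not tested.

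As a feature that the choice of the set did not use, the promoters were searched for the MYC-binding E-box CACGTG, which reads the same on both strands. Of the 42 genes, 34 have a promoter in the RefSeq table (GRCh38.p14, from 250 bases before to 50 bases after each start), and 16 of these (47.1%) hold the motif. It occurs in 34 of 127 promoters (26.8%) of other genes of the same pathways, in 12.5% of 9670 promoters of genes tested in these libraries and in 8.77% of all 27305 genes with a promoter. In 15 of the 34 (44.1%) the motif lay within 50 bases of the start, compared with 5.27% of the promoters of tested genes. NOP56, POLR1A and UBTF, whose changes are also described further on, have a promoter without the motif, and MYC and RRS1 have no promoter entry. The following stretches of 30 bases are examples, 5′ to 3′ on the strand of the gene with the motif in capitals. They come from members with changes described further on (GAR1, UTP20, LTV1, MYBBP1A, EBNA1BP2, BYSL) and from FBL, which passed no threshold.
FBL: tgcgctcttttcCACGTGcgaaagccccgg
GAR1: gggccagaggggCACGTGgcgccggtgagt
UTP20: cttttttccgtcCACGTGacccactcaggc
LTV1: gtcctggggctgCACGTGtggtgaggccta
MYBBP1A: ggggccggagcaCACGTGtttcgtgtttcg
BYSL: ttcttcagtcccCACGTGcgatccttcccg
EBNA1BP2: gatattgttggcCACGTGggatcgaagacc
These stretches lie at chr19:39846356-39846385 (minus strand) for FBL, chr4:109815781-109815810 (plus) for GAR1, chr12:101280083-101280112 (plus) for UTP20, chr6:143843354-143843383 (plus) for LTV1, chr17:4555340-4555369 (minus) for MYBBP1A, chr6:41921515-41921544 (plus) for BYSL and chr1:43172790-43172819 (minus) for EBNA1BP2. In the first 6 of them the motif began between positions -10 and 31, counted from 0 at the start, whereas EBNA1BP2 has 2 annotated starts, with the motif shown at position -237 of one and a second motif at position 42 of the other. A match is a stretch of letters and not a measured binding site.

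The changes of members with and without the motif were set side by side, and no test of these differences was run. With SP2509 the median log2 fold change was -0.27 for the 16 members with an E-box and -0.33 for the 17 without, and in the shLSD1 line with Dox it was 0.32 for 15 and 0.35 for 18. In the shG9a line with Dox the medians were 0.31 and 0.38. With UNC0642 they were -0.02 and -0.15. None of the 16 members with an E-box was called there, and 1 rose and 1 fell of 18 without, beside 18.2% and 16.9% of all genes. They lay further apart with the combination, where 3 of 16 members with an E-box rose and 3 fell (median -0.07), while 2 of 18 without one rose and 7 fell (-0.29). Among all genes tested there, 31.4% rose and 31.7% fell. Of the 7 further members with no promoter entry, MYC apart, 6 fell with SP2509 (median -0.56). With an E-box 6 of 16 fell and without one 8 of 17, beside 39.9% of all genes. NOP58 and NOLC1 are among the 6 without an entry, and their falls depend on the scaling, as described further on.

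The levels of the 42 genes spanned a wide range within each library. With vehicle the median was 17.0 FPKM, the lowest value was that of PPAN at 0.247 FPKM and the highest that of NPM1 at 574 FPKM. NPM1 was also the highest member in every other library except that with SP2509, where MYC exceeded it. In the knockdown table the lowest member was NOP2, a methyltransferase of large subunit rRNA, with 0.0361 to 0.183 FPKM, although it had 12.2 to 27.2 FPKM in the inhibitor libraries. In reads this was 3 to 15 in the knockdown libraries and 1021 to 2154 in the inhibitor libraries. The 2 tables differ in the gene types and symbols they list, and GENCODE 44 places another protein-coding gene over NOP2 (chromosome 12 from 6556863 to 6568691) on the same strand, so that the knockdown values of NOP2 are uncertain and it was not tested there.

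MYC, on chromosome 8 from 127735434 to 127741434, was the member with the largest change in 2 of the 5 comparisons, SP2509 and induced shG9a. It had 137 FPKM under vehicle, 697 after SP2509, 153 after UNC0642 and 182 after both. The uninduced and induced shLSD1 libraries had 219 and 105 FPKM, and those of shG9a 206 and 67.2. MYC was thus highest with SP2509 and lowest in the shG9a line with Dox. By estimated reads, SP2509 over vehicle was 5.10 (95% interval 4.97 to 5.24), from 6416 and 37222 reads. Induction of shLSD1 gave 0.478 (0.463 to 0.493) and induction of shG9a gave 0.327 (0.314 to 0.339). On the log2 scale these changes were 2.34, -1.06 and -1.60. These intervals are exact Clopper-Pearson intervals of the split of reads between 2 libraries, and they cover counting error only.

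**Figure D1:**
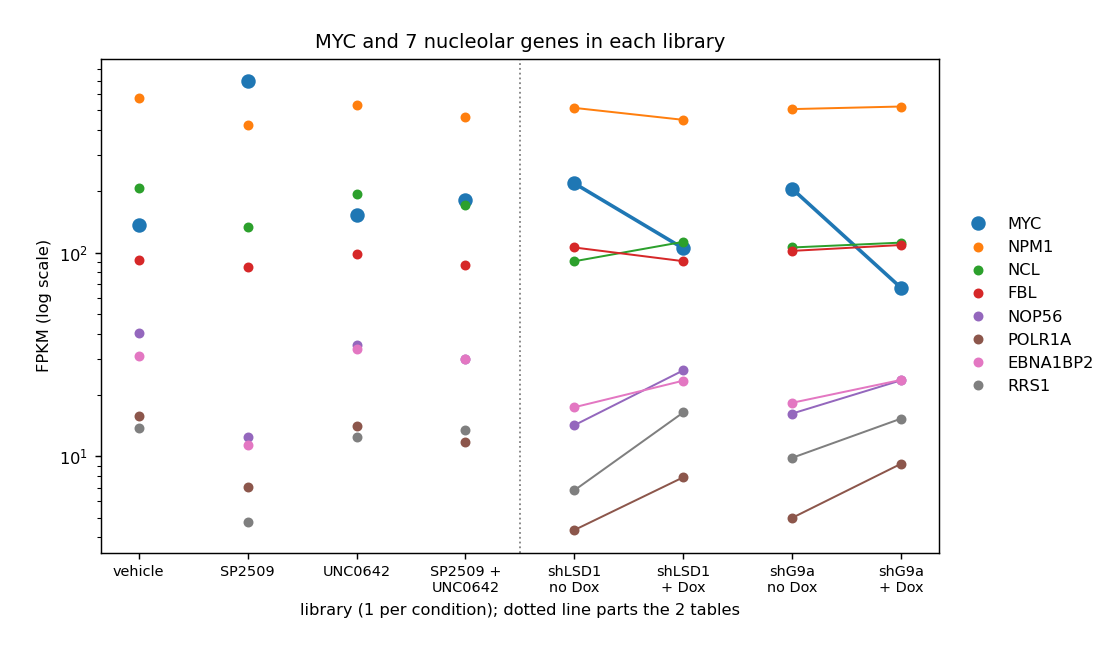
FPKM on a log axis of MYC and 7 nucleolar genes in each of the 8 libraries, 1 point per library, with lines joining the libraries of a line without and with doxycycline. MYC rises to 697 FPKM with SP2509, where NOP56, EBNA1BP2, POLR1A and RRS1 are at their lowest among the inhibitor libraries, and MYC falls in both lines with doxycycline, where those 4 genes are higher than without it.

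With SP2509, most of the set was lower than with vehicle while MYC was higher. Of 41 members tested, 20 fell (48.8%), 2 rose and 19 passed neither threshold. Among all genes tested, 39.9% fell and 21.0% rose. The members' median log2 fold change was -0.36, against -0.21 for all 13342 genes tested, and apart from MYC 35 members were below 0 and 5 above, where 61.8% of all genes were below 0. The share of falling members was thus near that of all genes. Scaling bears on this count, because the ratios of genes at large were themselves shifted by -0.09 (median over genes that reach 5 FPKM in each library) or -0.20 (trimmed mean). Relative to these shifts the members' median was -0.26 or -0.16, and 19 or 14 members fell (46.3% or 34.1%, beside 34.9% or 29.8% of all genes) and 2 or 4 rose. With the trimmed mean, the calls of all genes also went from 34.5% to 49.5% rising.

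The member that fell furthest with SP2509 was a snoRNP protein. NOP56, a core scaffold of box C/D snoRNPs on chromosome 20 from 2652145 to 2658393, had 40.2 FPKM under vehicle, 12.4 after SP2509, 35.1 after UNC0642 and 30.2 after both. Without and with Dox it had 14.2 and 26.4 FPKM in the shLSD1 line and 16.2 and 23.6 in the shG9a line. It fell by 1.62 on the log2 scale with SP2509, with a read ratio of 0.308 (0.288 to 0.329), and it rose in both lines with Dox (0.86 and 0.51). Its partner NOP58 fell with SP2509 as well (-0.56), from 67.8 to 45.7 FPKM. In all, 5 of the 6 snoRNP members fell with SP2509, beside 39.9% of all genes, and FBL was the exception. This count rests on the scaling, since with ratios centred on the trimmed mean NOP56 alone fell, and NOP58 (-0.36), GAR1 (-0.34), NOLC1 (-0.31) and NHP2 (-0.27) were no longer past the threshold.

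FBL encodes fibrillarin, the methyltransferase of box C/D snoRNPs, and lies on chromosome 19 from 39834458 to 39846414. It had 92.1 FPKM under vehicle, 85.1 after SP2509, 98.3 after UNC0642 and 86.6 after both, and 106 and 90.8 FPKM in the uninduced and induced shLSD1 line and 102 and 109 in the shG9a line. FBL passed the threshold in none of the 5 comparisons, and its log2 fold changes ran from -0.22 to 0.09. NOLC1, a chaperone that shuttles snoRNPs, fell with SP2509 (-0.51), rose with the combination (0.52) and rose with both hairpins (0.61 and 0.51).

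GAR1 and NHP2 are core proteins of the H/ACA snoRNPs, which guide pseudouridylation. GAR1 had 15.9 FPKM under vehicle, 10.7 after SP2509, 13.7 after UNC0642 and 19.2 after both, 6.61 and 12.7 FPKM without and with Dox in the shLSD1 line, and 8.75 and 10.2 in the shG9a line. It fell with SP2509 (-0.53) and rose with shLSD1 (0.85), and it was not past the threshold with shG9a (0.21). NHP2 fell with SP2509 (-0.47) and rose with both hairpins (0.39 and 0.66).

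Nucleolin and nucleophosmin are the most abundant proteins of the nucleolus, where they bind rRNA precursors and assembling subunits. NCL (chromosome 2 from 231453531 to 231483641) had 207 FPKM under vehicle, 133 after SP2509, 193 after UNC0642 and 171 after both, and 90.7 and 113 FPKM in the uninduced and induced shLSD1 line and 106 and 112 in the shG9a line. NPM1 (chromosome 5 from 171387116 to 171411137) had 574, 424, 531 and 463 FPKM in the same order of inhibitor libraries, 514 and 449 in the shLSD1 line and 507 and 522 in the shG9a line. Both fell with SP2509 alone, by 0.64 and 0.44 on the log2 scale, and neither passed the threshold in the other 4 comparisons. NPM1 has many processed pseudogenes, so its level also depends on how reads were assigned, and its fall with SP2509 was no longer past the threshold under either centring.

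Among the Pol I genes, the largest subunit stood out. POLR1A (chromosome 2 from 86020216 to 86106155) had 15.8 FPKM under vehicle, 7.03 after SP2509, 14.1 after UNC0642 and 11.7 after both. In the shLSD1 line it had 4.34 FPKM without and 7.88 with Dox, and in the shG9a line 4.98 and 9.18. It fell by 1.07 on the log2 scale with SP2509 and by 0.40 with the combination, and it rose by 0.73 and 0.77 with the 2 hairpins. UBTF, which binds the rRNA genes and keeps their chromatin open, had 16.7, 10.0, 15.0 and 12.6 FPKM with vehicle, SP2509, UNC0642 and the combination, 10.4 and 15.8 in the shLSD1 line and 11.0 and 20.1 in the shG9a line. UBTF followed POLR1A in each comparison where POLR1A was called (-0.68, -0.38, 0.56 and 0.81). POLR1B, the other large subunit, passed the threshold with the hairpins (0.51 and 0.44) and not with an inhibitor.

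RRN3, the initiation factor that brings Pol I to the promoter, was at 23.3 FPKM under vehicle, 22.2 after SP2509, 24.8 after UNC0642 and 41.4 after both, and at 11.3 and 14.0 FPKM in the shLSD1 line and 13.4 and 15.4 in the shG9a line. Its rise with the combination (0.80) was the largest of any member there, while with either inhibitor alone it was close to vehicle (-0.07 and 0.09). RRN3 has near-identical pseudogene copies, and reads may have been shared among them. TCOF1, or treacle, a nucleolar scaffold of Pol I and rRNA processing, had 19.5 FPKM under vehicle, 15.0 after SP2509, 27.2 after UNC0642 and 28.6 after both. It had 6.70 and 7.10 FPKM in the uninduced and induced shLSD1 line and 6.79 and 10.6 in the shG9a line, and rose with UNC0642 (0.46), with the combination (0.53) and with shG9a (0.58). With SP2509 (-0.36) and shLSD1 (0.07) TCOF1 passed no threshold.

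**Figure D2:**
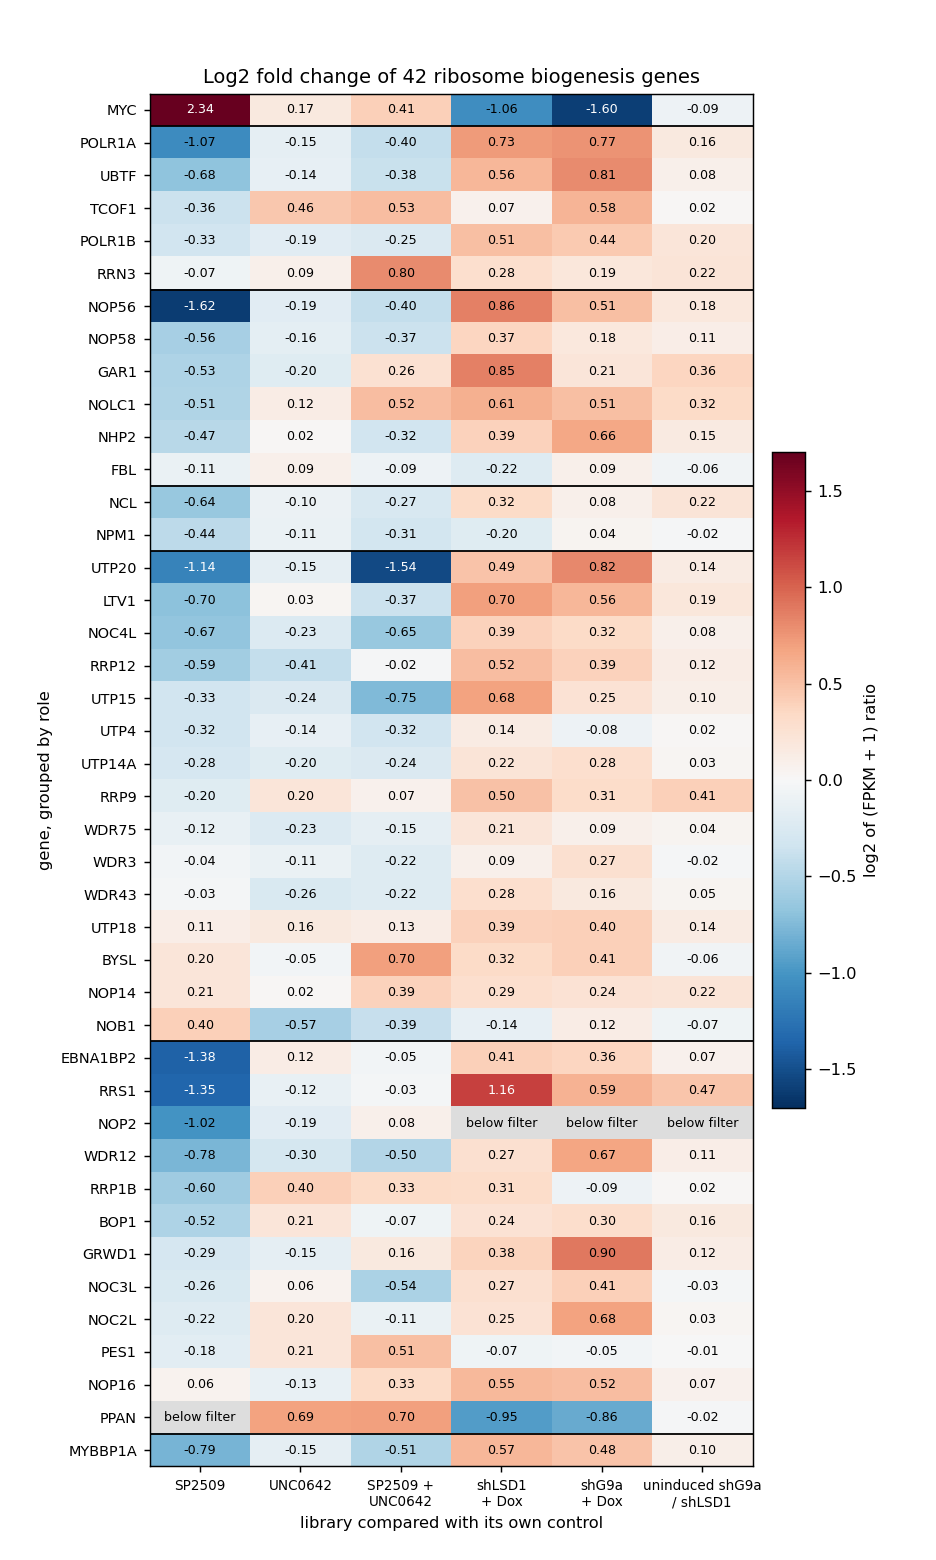
Log2 ratio of FPKM + 1 of each member (vertical axis, grouped by role with MYC first) in the 6 pairs of libraries (horizontal axis), in red where the first library is higher and in blue where it is lower, with the value printed in each cell, grey cells below the filter of 1 FPKM, and a colour scale that ends below the value of MYC with SP2509 (2.34). The column of SP2509 is mostly blue with MYC red, and the columns of the 2 lines with doxycycline are mostly red with MYC blue.

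Of the 15 members of the small subunit processome and small subunit maturation, 4 fell and 1 rose with SP2509, beside 39.9% and 21.0% of all genes. With ratios centred on the trimmed mean 4 fell and 3 rose, beside 29.8% and 29.1% of all genes. UTP20, a very large processome component on chromosome 12 from 101280109 to 101386616, had 12.4 FPKM under vehicle, 5.08 after SP2509, 11.2 after UNC0642 and 3.62 after both. It had 2.01 and 3.22 FPKM in the uninduced and induced shLSD1 line and 2.32 and 4.87 in the shG9a line. Its fall with the combination (-1.54, read ratio 0.291, interval 0.265 to 0.319) was the largest of any member there, and it also fell with SP2509 (-1.14) and rose with both hairpins (0.49 and 0.82). The other members of this group that fell with SP2509 were LTV1 (-0.70), a factor of late small subunit assembly, NOC4L (-0.67) and RRP12 (-0.59). LTV1 rose with both hairpins (0.70 and 0.56).

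NOB1, the nuclease that makes the last cut of small subunit rRNA, differed in direction between treatments. It had 37.8 FPKM under vehicle, 50.3 after SP2509, 25.1 after UNC0642 and 28.5 after both, and 38.0 and 34.3 FPKM in the uninduced and induced shLSD1 line and 36.1 and 39.4 in the shG9a line. Among the 41 members tested, NOB1 and MYC were the 2 that rose with SP2509 (0.40 for NOB1), and NOB1 fell with UNC0642 (-0.57) and with the combination (-0.39). BYSL, a factor of small subunit maturation, had 13.6, 15.8, 13.1 and 22.7 FPKM with vehicle, SP2509, UNC0642 and the combination, 10.6 and 13.5 in the shLSD1 line and 10.1 and 13.8 in the shG9a line. BYSL rose with the combination (0.70) and with shG9a (0.41). NOP14, a processome component, had 8.81, 10.3, 8.94 and 11.8 FPKM in the inhibitor libraries, 4.41 and 5.60 in the shLSD1 line and 5.31 and 6.48 in the shG9a line, and was past the threshold with the combination alone (0.39).

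RRP12, an export factor of the subunits, had 5.91 FPKM under vehicle, 3.58 after SP2509, 4.19 after UNC0642 and 5.81 after both, and 2.89 and 4.57 FPKM in the shLSD1 line and 3.22 and 4.52 in the shG9a line. It fell with each inhibitor alone (-0.59 and -0.41) but was level with vehicle in the combination (-0.02). UTP15, of the complex that links Pol I transcription to processing, had 5.74, 4.36, 4.70 and 3.01 FPKM in the inhibitor libraries, 2.00 and 3.80 in the shLSD1 line and 2.20 and 2.81 in the shG9a line. UTP15 fell with the combination (-0.75) and rose with shLSD1 (0.68). NOC4L, of the NOC complexes that accompany subunits through the nucleus, had 13.2, 7.89, 11.1 and 8.03 FPKM in the inhibitor libraries, 12.5 and 16.7 in the shLSD1 line and 13.3 and 16.8 in the shG9a line. It fell with SP2509 and with the combination (-0.67 and -0.65) and rose with shLSD1 (0.39).

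Several processome members hardly moved. WDR43 had 48.7, 47.8, 40.5 and 41.6 FPKM in the inhibitor libraries, 18.3 and 22.5 in the shLSD1 line and 18.9 and 21.3 in the shG9a line, and UTP4 had 25.1, 20.0, 22.7 and 19.9, then 13.3 and 14.7, then 13.4 and 12.7. Both belong to the same early processome complex, and neither passed the threshold in any comparison. The same held for UTP14A, WDR3 and WDR75, whose log2 fold changes stayed between -0.28 and 0.28. UTP18 (0.39 and 0.40) rose in both lines with Dox, and RRP9 (0.50), a protein of the U3 snoRNP, rose in the shLSD1 line, while neither was called with an inhibitor.

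In large subunit assembly, 6 of the 11 members tested fell with SP2509 and none rose, beside 39.9% and 21.0% of all genes. With ratios centred on the trimmed mean 5 of 11 fell, beside 29.8% of all genes. EBNA1BP2 (chromosome 1 from 43164175 to 43270936) had 30.9 FPKM under vehicle, 11.3 after SP2509, 33.8 after UNC0642 and 29.9 after both, and 17.4 and 23.5 FPKM in the uninduced and induced shLSD1 line and 18.3 and 23.7 in the shG9a line. RRS1, whose product is known to bind that of EBNA1BP2 in the early large subunit, had 13.7, 4.77, 12.5 and 13.4 FPKM in the inhibitor libraries, 6.80 and 16.4 in the shLSD1 line and 9.82 and 15.3 in the shG9a line. Both fell with SP2509, by 1.38 and 1.35 on the log2 scale, and both were close to vehicle in the combination (-0.05 and -0.03). RRS1 rose most of all members in the shLSD1 line with Dox (1.16, read ratio 2.42, interval 2.05 to 2.86), but the 2 uninduced lines differed in RRS1 too (0.47).

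PES1, BOP1 and WDR12 encode the PeBoW complex, which processes large subunit rRNA. WDR12 had 8.88, 4.74, 7.04 and 6.00 FPKM in the inhibitor libraries, 3.72 and 4.71 in the shLSD1 line and 4.10 and 7.13 in the shG9a line, and PES1 had 26.6, 23.3, 31.0 and 38.3, then 28.9 and 27.5, then 28.7 and 27.6. WDR12 fell with SP2509 (-0.78) and the combination (-0.50) and rose with shG9a (0.67). PES1 passed the threshold only in the combination, where it rose (0.51), and BOP1 only with SP2509, where it fell (-0.52). The 3 subunits of 1 complex thus gave different patterns, with WDR12 and PES1 on opposite sides in the combination.

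GRWD1, a histone-binding protein that joins large subunit precursors, had 17.3, 13.9, 15.4 and 19.4 FPKM in the inhibitor libraries, 8.64 and 11.6 in the shLSD1 line and 9.50 and 18.6 in the shG9a line. Its rise in the shG9a line was the largest of any member there (0.90, read ratio 1.96, interval 1.81 to 2.13). RRP1B, a nucleolar partner of protein phosphatase, had 14.7, 9.35, 19.7 and 18.6 FPKM in the inhibitor libraries, 7.34 and 9.37 in the shLSD1 line and 7.43 and 6.89 in the shG9a line, and it fell with SP2509 (-0.60) and rose with UNC0642 (0.40). NOC3L had 12.5, 10.2, 13.1 and 8.28 FPKM in the inhibitor libraries, 3.94 and 4.96 in the shLSD1 line and 3.85 and 5.43 in the shG9a line, with a fall in the combination (-0.54) and a rise with shG9a (0.41). NOC2L, its partner, rose with shG9a (0.68), and NOP16 rose with both hairpins (0.55 and 0.52). NOP2 fell with SP2509 (-1.02), from 25.8 to 12.2 FPKM.

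PPAN, a large subunit factor, had the fewest reads of the tested members and fell with MYC in both induced lines. It had 0.247 FPKM under vehicle, 0.565 after SP2509, 1.02 after UNC0642 and 1.03 after both, and 1.53 and 0.310 FPKM in the uninduced and induced shLSD1 line and 1.50 and 0.380 in the shG9a line. These values rest on 10 to 47 reads in the inhibitor libraries and on 14 to 70 in the knockdown libraries. PPAN rose with UNC0642 (0.69) and the combination (0.70), where the read ratios had intervals of 2.05 to 9.13 and 2.07 to 9.29, and it fell with both hairpins (-0.95 and -0.86). PPAN (chromosome 19 from 10106289 to 10111634) is overlapped on its own strand by P2RY11 and by a transcript that runs through both genes, so the reads counted for it are uncertain. It was below 1 FPKM in both libraries of the SP2509 comparison and was not tested there.

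UNC0642 left most of the set where it was. Of 42 members tested, 37 passed neither threshold, 3 rose (PPAN, TCOF1 and RRP1B) and 2 fell (NOB1 and RRP12). Among all 13244 genes tested, 18.2% rose and 16.9% fell, beside 7.14% and 4.76% of the members, a difference that was not tested. Their median was -0.12, and the lowest value was -0.57.

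The combination gave 8 rising and 10 falling members of 42, against 31.4% and 31.7% of the 13907 genes tested, and a median of -0.13. The rising members were RRN3, BYSL, PPAN, TCOF1, NOLC1, PES1, MYC (0.41) and NOP14, and the falling ones were UTP20, UTP15, NOC4L, NOC3L, MYBBP1A (-0.51), WDR12, POLR1A, NOP56, NOB1 and UBTF. MYC was at 182 FPKM in the combination and at 697 with SP2509 alone, and NOP56 at 30.2 and 12.4. The count of falling members moved either way with the scaling. With ratios centred on a trimmed mean, 8 members rose and 6 fell in place of 10, beside 4594 and 4172 of the 13907 genes. Centred on the median, 6 members rose and 12 fell (14.3% and 28.6%), beside 29.9% and 33.5% of all genes. The 3 inhibitor comparisons share the vehicle library, so that no overlap between them is counted, and the combination's doses are not given separately.

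In the shLSD1 line with Dox, the set was mostly higher than without Dox while MYC and PPAN were lower. Of 41 members tested, 19 rose (46.3%), 2 fell and 20 passed neither threshold, where 24.8% of all 12970 genes rose and 12.3% fell. The median was 0.32, and apart from MYC 35 of 40 members were above 0, where 63.3% of all genes were. By role, 4 of 6 snoRNP members, 3 of 5 Pol I members, 7 of 15 small subunit members and 4 of 11 large subunit members rose. MYBBP1A, a nucleolar binding protein of MYB factors, rose as well (0.57), with 17.9 FPKM without and 27.0 with Dox. Genes at large were themselves shifted upwards by 0.11 (median) or 0.15 (trimmed mean), and relative to these shifts 13 or 10 members rose (31.7% or 24.4%, beside 17.0% or 15.2% of all genes), the members' median was 0.21 or 0.17, and 50.7% or 45.0% of all genes called rose in place of 66.8%. With the trimmed mean, the rising members were 3 snoRNP, 2 Pol I, 2 small subunit and 2 large subunit members and MYBBP1A.

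In the shG9a line with Dox, the counts were the same, with 19 rising, 2 falling and 20 neither of 41 members tested, beside 32.9% and 17.6% of 13080 genes. The median was again 0.32, beside 0.18 for all genes. Apart from MYC 36 of 40 members were above 0, where 63.4% of all genes were. The rises were led by GRWD1 (0.90), UTP20 (0.82), UBTF (0.81) and POLR1A (0.77), and 4 of 5 Pol I members, 3 of 6 snoRNP members, 5 of 15 small subunit members and 6 of 11 large subunit members rose. Here the shift of genes at large was 0.14 or 0.19, and relative to it 11 or 9 members rose (26.8% or 22.0%). These shares were near those of all genes, of which 22.5% or 19.3% rose on the same scales. The median of the members was then 0.18 or 0.13, and 50.0% or 43.5% of all genes called rose in place of 65.2%. With the trimmed mean, 3 Pol I, 1 snoRNP, 1 small subunit and 4 large subunit members rose. The number of rising members in the shG9a line thus depends on the scaling more than their direction does, since the median stayed above 0 under both.

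**Figure D3:**
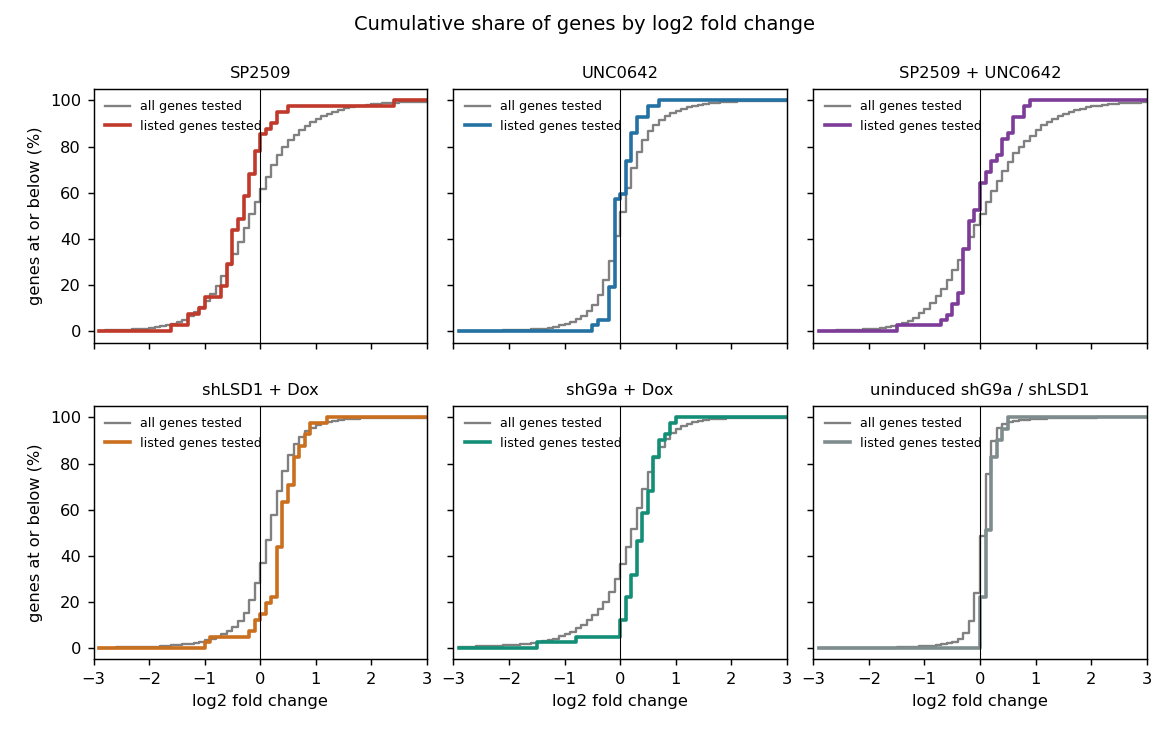
Cumulative share of genes (vertical axis, percent) at or below each log2 fold change (horizontal axis) in 6 pairs of libraries, with the listed genes tested in colour and all genes tested in grey. The curve of the listed genes lies to the left of the grey curve with SP2509 around 0 (medians -0.36 and -0.21) and to the right of it between 0 and 0.5 in both lines with doxycycline, where the median of the listed genes is 0.32. The curves cross further to the right, and at 0.9 the listed genes reach 97.6% in each line against 95.6% (shLSD1) and 93.0% (shG9a) of all genes.

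The libraries of the 2 uninduced lines, which differ in their construct and are not replicates, give an idea of how far libraries differ without induction. Between them, 2 of 41 members rose (RRS1, 0.47, and RRP9, 0.41, in shG9a over shLSD1) and none fell, beside 3.04% and 4.51% of all genes tested, and the members' median was 0.10. Apart from MYC, 32 of 40 members were above 0 here as well, beside 51.5% of all genes. The members' median with Dox was larger (0.32 in each line). All genes, however, had medians of 0.13 (shLSD1) and 0.18 (shG9a) with Dox and 0.00 between the uninduced lines. With ratios centred on the trimmed mean, the members' medians were 0.17 (shLSD1) and 0.13 (shG9a) with Dox, beside 0.09 between the uninduced lines.

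The 2 routes to LSD1 moved many members in opposite directions. Of the 40 members tested in both comparisons, 13 (32.5%) fell with SP2509 and rose in the shLSD1 line with Dox, against 14.4% of all genes tested in both. These were NOP56, GAR1, NHP2, NOLC1, NOC4L, UTP20, RRP12, RRS1, POLR1A, UBTF, LTV1, EBNA1BP2 and MYBBP1A, which is 68.4% of the 19 members that fell with SP2509 and also 68.4% of the 19 that rose with shLSD1. For all genes the corresponding shares were 35.6% and 60.8%. MYC alone did the reverse (1 of 40, or 2.50%, against 6.00% of all genes). Relative to the shift of genes at large, 9 members (median) or 6 (trimmed mean) fell with SP2509 and rose with shLSD1, against 9.04% or 7.38% of all genes, and NOP56, RRS1, POLR1A, UBTF, LTV1 and MYBBP1A were among them under both. The arms differ in construct, duration of selection and agent as well as in route, and their tables were normalized separately.

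Without centring, the 2 hairpins moved much of the set alike in direction. Of 41 members tested in both lines, 14 (34.1%) rose in both, against 13.8% of all genes, and MYC and PPAN fell in both (4.88%, against 7.34%). The 14 were NOP56, NHP2, NOP16, NOLC1, UTP18, UTP20, RRP12, RRS1, POLR1A, POLR1B, UBTF, LTV1, GRWD1 and MYBBP1A, or 73.7% of the members that rose in each line, where the shares of all genes were 58.0% and 44.4%. Relative to the shift of genes at large, 5 (12.2%, against 7.80%) or 3 (7.32%, against 6.42%) rose in both, and RRS1, POLR1A and UBTF were among them under both scalings. With the trimmed mean, the share of members was thus near that of all genes. Both lines received Dox, and KDM1A was itself higher with Dox in the shG9a line (26.4 and 35.8 FPKM).

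Other genes of ribosome production, 144 in 5 lists that hold no member, had medians of the same sign as the members and nearer to 0 in all 6 pairs of libraries. With SP2509, 50 of 141 tested fell and 13 rose (median -0.28), with UNC0642 10 of 140 fell and 4 rose (-0.05), and with the combination 39 fell and 32 rose of 140 (-0.09). With Dox, 37 of 142 rose and 3 fell in the shLSD1 line (0.23), and 55 of 141 rose and 2 fell in the shG9a line (0.30). Between the uninduced lines 2 rose and 1 fell (0.05). With SP2509 these were 35.5% falling and 9.22% rising, beside 39.9% and 21.0% of all genes. With UNC0642 they were 7.14% and 2.86%, beside 16.9% and 18.2%, and with the combination 27.9% and 22.9%, beside 31.7% and 31.4%. With Dox the rising shares were 26.1% in the shLSD1 line and 39.0% in the shG9a line, beside 24.8% and 32.9% of all genes, and the falling shares were 2.11% and 1.42%, beside 12.3% and 17.6%. With SP2509 and with Dox, the shares called in the main direction were thus near those of all genes. With ratios centred on the trimmed mean, 26 fell and 29 rose with SP2509 (18.4% and 20.6%, beside 29.8% and 29.1% of all genes). In the shLSD1 and shG9a lines 22 and 24 then rose (15.5% and 17.0%, beside 15.2% and 19.3%).

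Single genes of these lists moved about as far as the leading members. NOL6, a scaffold of the small subunit processome, fell from 15.4 to 4.95 FPKM with SP2509 (-1.46), and EXOSC6, a subunit of the RNA exosome that trims rRNA ends, fell from 6.15 to 1.74 FPKM (-1.38). RUVBL1 (-1.11) and DKC1 (-0.86), which assemble and catalyse in snoRNPs, also fell with SP2509 and rose with shLSD1 (0.70 and 0.58). HEATR1, a large processome component, fell most of its list in the combination (-1.06), and POLR1F, a stalk subunit of Pol I listed as TWISTNB, fell there from 13.9 to 5.72 FPKM (-1.15). In the shLSD1 line the leading rises were URB2 (1.12) and PNO1 (0.95), which serve large and small subunit assembly, and in the shG9a line MPHOSPH6 (1.35), an exosome cofactor, and POLR2L (1.35), a small subunit shared by the RNA polymerases. RIOK3, an atypical kinase of late small subunit maturation, went against its list, since it rose with SP2509 (1.24) and fell with both hairpins (-0.73 and -1.26).

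The 13 host genes of snoRNAs, most of them noncoding, had their lowest median with UNC0642. There 9 of them fell and none rose (median -0.62), beside 16.9% and 18.2% of all genes, led by SNHG1, which had 62.5 FPKM under vehicle, 10.7 after SP2509, 20.9 after UNC0642 and 29.2 after both. In the shG9a line with Dox 6 fell and 1 rose (median -0.37), beside 17.6% and 32.9% of all genes, and 10 fell under either centring. SNHG8 fell there from 76.2 to 36.4 FPKM. With SP2509 4 fell and 3 rose (-0.03), beside 39.9% and 21.0% of all genes. With the combination 3 fell and 5 rose (0.29), beside 31.7% and 31.4%. In the shLSD1 line 2 fell and 1 rose (0.03), beside 12.3% and 24.8%, or 4 and none under either centring. No difference between this list and the protein-coding genes was tested.

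**Figure D4:**
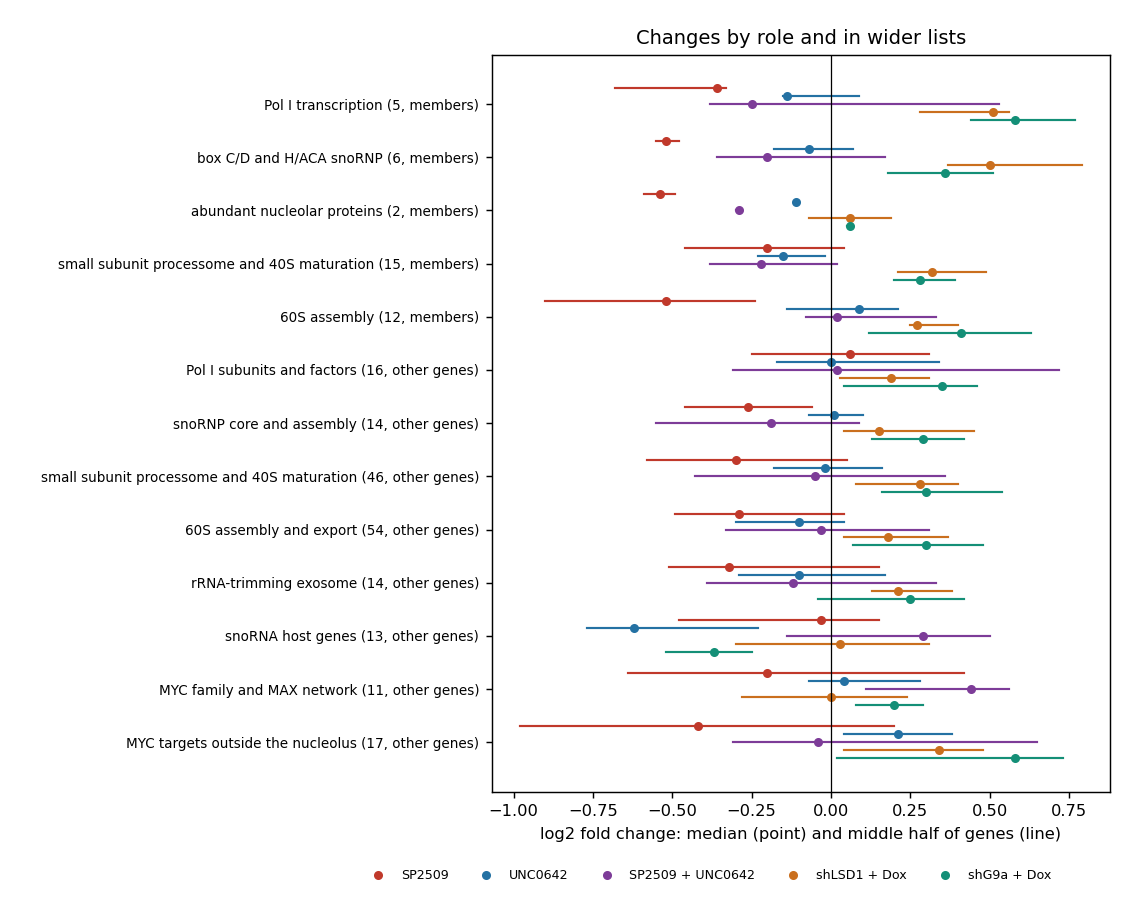
Median log2 fold change (point) and range from the lower to the upper quartile (line) of each list (vertical axis, with the number of genes listed) in the 5 comparisons of a treated library with its control (colours). The lists of members and the 5 lists of other ribosome production proteins have medians above 0 in both lines with doxycycline, and the snoRNA host genes lie at -0.62 with UNC0642 and at -0.37 in the shG9a line.

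Of the genes of MYC's own network, MYC apart, 3 rose and 3 fell of 8 tested with SP2509, beside 21.0% and 39.9% of all genes. With UNC0642 2 rose and 1 fell of 8, beside 18.2% and 16.9%. With the combination 6 of 9 rose and none fell, beside 31.4% and 31.7%. In each line with Dox 2 rose and 2 fell of 10, beside 24.8% and 12.3% (shLSD1) and 32.9% and 17.6% (shG9a). Some thus moved with MYC and others against it. MXD1 and MXI1, which encode MAX partners that oppose MYC, fell in the shLSD1 line (-1.92 and -1.12) and in the shG9a line (-3.08 and -1.66) together with MYC. MXI1 rose with SP2509 (1.12), and MXD1 rose most in the combination, from 6.19 to 49.1 FPKM (2.80). MXD4 (-0.89) and MNT (-0.73) fell with SP2509, and MYCL rose in both lines with Dox (0.76 and 1.27). MAX had 17.7 FPKM with vehicle and 11.3 with SP2509, and 19.1 and 29.7 without and with Dox in the shLSD1 line. Of 16 known MYC targets outside the nucleolus tested with SP2509, 8 fell and 2 rose (median -0.42), beside 39.9% and 21.0% of all genes. In the shG9a line 11 of 16 rose and 3 fell (0.58), beside 32.9% and 17.6%, and in the shLSD1 line 7 of 17 rose and 2 fell (0.34), beside 24.8% and 12.3%. With UNC0642 5 of 16 rose and 1 fell (0.21), beside 18.2% and 16.9%. With the combination 6 of 16 rose and 3 fell (-0.04), beside 31.4% and 31.7%. CAD, the first enzyme of pyrimidine synthesis, fell with SP2509 (-1.74) and rose with both hairpins (0.84 and 1.12), and SRM, spermidine synthase, fell with SP2509 (-1.59) and rose with them (0.94 and 0.59). LDHA, which makes lactate, did the reverse, with 91.7 FPKM in vehicle and 251 with SP2509. It had 241 and 90.1 FPKM in the shLSD1 line and 212 and 98.8 in the shG9a line. LDHA was also higher with UNC0642 (265 FPKM) and with the combination (316) than with vehicle. TFRC, the transferrin receptor, rose with SP2509 (1.49), UNC0642 (0.85) and the combination (1.26), where MYC changed by 2.34, 0.17 and 0.41. With the 2 hairpins TFRC was not past the threshold (0.37 and 0.07).

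The reads behind the calls were many. Every call named for a member was also past an exact binomial test of the reads of its 2 libraries, which compares libraries and not conditions, and the weakest in reads was PPAN. The strand setting of the counting is not given in the sources used here, and 24 of the 42 members are overlapped by another gene on either strand in GENCODE 44, 6 of them by a protein-coding gene on the same strand. The values of these members can include reads of their neighbours.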

How the data were processed

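Total RNA of 8 Kyse510 libraries, 1 per condition, was sequenced on an Illumina platform. Reads were cleaned and aligned to GRCh38 by the authors, who deposited FPKM values in 2 tables, one per arm. The aligner, the counting tool and its strand setting are not given in the sources used here. The tables were normalized separately and list partly different genes (26360 in common), so that treated libraries were compared with controls only within a table. The exception across tables is the look at the uninduced lines beside vehicle-treated cells under the last heading. Neither table holds fold changes or p-values of the authors' own.

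Each treated library was set against its own control, vehicle or the same line without Dox, as the log2 ratio of FPKM + 1, a scale that understates the change of low genes. Genes with at least 1 FPKM in either library were tested and called past a fold of 1.3, the fold that the methods of the study name. With 1 library per condition no test between conditions is possible. Whole reads and library totals were estimated from the steps of the FPKM values in genes of 1 exon, and the reads found add up to 99.4% to 99.7% of the totals, with 13 genes per table left without whole reads. They give the exact 95% intervals, which cover counting error only. The procedure was tested on simulated data. Python 3.11.15, numpy 2.4.6, pandas 2.3.3, scipy 1.17.1 and matplotlib 3.10.9 were used, with GENCODE release 44 for overlaps and RefSeq promoters.

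The members and all lists were chosen with earlier results of these data known. Every member may be named, with all libraries given for MYC, NCL, NPM1, FBL and the 4 members with the largest rise and the 4 with the largest fall in each comparison. Genes of the other lists are named where they are among the 2 largest rises or falls of their list. The alternatives were pseudocounts of 0.1 and 0.01, no filter, a minimum of 5 FPKM, a fold of 2, centring on the median or a trimmed mean, protein-coding genes only, an added binomial test of reads, and the mean of both uninduced libraries as control.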

Additional observations from a re-analysis of the deposited data

Results flagged for a closer look

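Members called in opposite directions with the inhibitor and with the hairpin against the same enzyme are listed here, with the difference in log2 fold change, induced hairpin minus inhibitor. Each rests on 1 library per condition, and the differences themselves were not tested. For LSD1, MYC was higher with SP2509 and lower with induced shLSD1, a difference of -3.40. The other 13 members were lower with SP2509 and higher with induced shLSD1. The differences were largest for RRS1 (2.51) and NOP56 (2.48), followed by POLR1A (1.80), EBNA1BP2 (1.79), UTP20 (1.63), LTV1 (1.40), GAR1 (1.39), MYBBP1A (1.36) and UBTF (1.24). They were smaller for NOLC1 (1.12), RRP12 (1.11), NOC4L (1.06) and NHP2 (0.86). For G9a, RRP12 was lower with UNC0642 and higher with induced shG9a (0.80), and PPAN was higher with UNC0642 and lower with induced shG9a (-1.55), which rests on 10 to 64 reads per library.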

How the results depend on the processing

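No paired analysis was possible because each condition has 1 library, and for the same reason no library could be left out. Over the 10 alternatives, 2291 values of single members were recomputed. In none of them did a called change turn its direction, 130 were no longer past the threshold and 14 came past it. Of 112 counts of members, 18 moved by over 1.5 times. At a fold of 2, 1 member rose and 6 fell with SP2509, 0 and 0 with UNC0642, and 0 and 1 with the combination. The counts were 1 and 1 in the induced shLSD1 line and 0 and 1 in the induced shG9a line, and 0 rose between the uninduced lines. Of all genes, 8.25% rose and 13.0% fell with SP2509 at that fold, 4.79% and 3.12% with UNC0642, and 13.0% and 9.57% with the combination. These shares were 3.36% and 3.27% in the shLSD1 line and 5.13% and 6.02% in the shG9a line, and 0.723% rose between the uninduced lines. Centring on a trimmed mean gave 4 rising members with SP2509, and 10 and 9 rising in the induced shLSD1 and shG9a lines. For the combination, that centring gave 6 falling of 42 members, beside 4172 of 13907 genes. Centring on the median gave 12 falling there (28.6%, beside 33.5% of all genes). Centring on the median gave 11 rising in the shG9a line (26.8%, beside 22.5% of all genes). With a minimum of 5 FPKM, 1 member fell in each induced line, since PPAN was no longer tested, beside 12.3% (shLSD1) and 18.6% (shG9a) of all genes. The medians of the set kept their sign under all alternatives. Depth limits PPAN, and NOP2 in the knockdown libraries.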

Other observations

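Without induction, the members were lower in the knockdown lines than in vehicle-treated cells of the other table. This held in both uninduced lines for 35 of 42 members (83.3%), with a median log2 ratio of -0.84, and for 54.1% of 13382 genes listed in both tables with at least 1 FPKM, with a median of -0.13. The 7 members that were not lower in both were MYC, FBL, NOC4L, BOP1, PES1, NOB1 and PPAN. The tables were normalized separately, and the arms differ in table, selection and vehicle, which cannot be told apart here.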
